A study of Mus musculus with 18 samples.

Results

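Oxidative phosphorylation is carried out by 5 protein complexes of the inner mitochondrial membrane, most of whose subunits are encoded in the nucleus. The members described here were taken by name: protein-coding mouse genes whose symbols begin with Nduf, Uqcr, Cox4 to Cox8 or Atp5, or are Sdha to Sdhd, without pseudogenes and without the transcripts of the mitochondrial genome. The rule found 94 of the 54446 genes in the table. They were 7 core and 29 accessory subunits of complex I, 8 complex I assembly factors, 4 subunits of complex II, 8 of complex III, 20 of complex IV and 18 genes of ATP synthase. Ndufa4 and Ndufa4l2 were counted with complex IV, where the Ndufa4 protein is known to sit. The rule reads symbols only.

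The cells were eosinophils from the peritoneal cavity of Il5 transgenic mice (strain given as C57BL/6), which carry excess IL-5 and therefore many eosinophils. The culture lasted 18 h and included, at 5 per eosinophil, apoptotic cells (ACs), which were wild-type thymocytes killed with dexamethasone. The eosinophils were then purified again on Siglec-F beads. The Type 1 experiment had 4 groups: ACs alone, ACs with E. coli (E. coli + ACs), ACs with IFN-γ (IFN-γ + ACs), and a combined group with both stimuli (IFN-γ + E. coli + ACs). Its 3 stimulated groups share the same ACs libraries as controls. The study describes the combined stimulus as IFN-γ followed by E. coli, and the interval between them is not given in the sources used here. In the IL-4 experiment the groups were ACs alone and IL-4 + ACs. Each group had 3 libraries, which the study describes as biological replicates, and every group received ACs, so each comparison is of a stimulus added to ACs with ACs alone. RNA was counted from the 3′ ends of transcripts by CEL-Seq2. The libraries held between 779421 and 7782072 reads on genes. Replicate 3 of each IL-4 experiment group was shallow, with 779421 and 849705 reads, where 3 reads are worth 16.1 and 15.4 normalized counts.

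The respiratory chain works as a relay. Complex I takes electrons from NADH and complex II takes them from succinate, both pass them through ubiquinone to complex III, cytochrome c carries them on to complex IV, and complex IV reduces oxygen. Complexes I, III and IV pump protons, and ATP synthase uses the returning protons to make ATP. Complex I has core subunits, which hold its redox centres, and accessory subunits around them, and it is put together by assembly factors that are not part of the finished enzyme. In myeloid cells, a shift from respiration to glycolysis on exposure to bacterial products and IFN-γ, and reliance on respiration after IL-4, are well known from macrophages.

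Several transcription factors are known to act on these genes, among them NRF1, GABP (of the ETS family), YY1 and Sp1. Promoters from RefSeq (GRCm38.p6, 250 bases before to 50 after the start) were matched for 76 of the member genes, as 81 promoters. The NRF1 letters GCGCATGC, searched on both strands, were in 12 of the 81 promoters (14.8%) and in 2.71% of all 32851 promoters. The YY1 letters AAGATGGCG were in 8 (9.88%) and in 1.4% of all. For the ETS letters CCGGAAGT the shares were 6.17% and 3.89%, and for the GC box GGGGCGGGG they were 16.05% and 11.45%. AAGATGGCG contains an ATG, so it can also be the start of a coding sequence, and GCGCATGC overlaps its own reverse complement by all but 2 bases when they lie side by side. A match describes the letters only and was not tested as a binding site. Of the members past the threshold in a comparison below, the 5 that hold NRF1, ETS or YY1 letters are shown here as examples. Among all 76 member genes, past the threshold or not, 12 held the NRF1, 5 the ETS and 8 the YY1 letters. Whether members past the threshold hold them more often than the others was not tested. The pieces run 5′ to 3′ on the gene's strand, and capitals mark the motif letters (in Sdhb also a GC box). Sdhb is at chr4:140961121-140961230 (+), Uqcr11 at chr10:80406818-80406971 (-), Ndufaf5 at chr2:140170656-140170677 (+), Ndufaf8 at chr11:120098938-120098958 (+) and Ndufs7 at chr10:80249467-80249487 (+).
Sdhb: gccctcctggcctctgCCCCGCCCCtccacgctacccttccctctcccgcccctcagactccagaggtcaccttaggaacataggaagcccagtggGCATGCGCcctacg
Uqcr11: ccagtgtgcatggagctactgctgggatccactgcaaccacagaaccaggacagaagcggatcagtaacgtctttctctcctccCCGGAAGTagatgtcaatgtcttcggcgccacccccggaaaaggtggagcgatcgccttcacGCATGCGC
Ndufaf5: ccgttgGCGCATGCGCctaata
Ndufaf8: gggcccAAGATGGCGgcgccc
Ndufs7: gaggccAAGATGGCGgcgctg
The NRF1 letters began 54 bases before the start of Sdhb and 4 bases before that of Uqcr11, at positions -54 and -4. In Ndufaf5 they lay after the start, at positions 17 and 19 on opposite strands. The YY1 letters began at position 11 in Ndufaf8 and at position 25 in Ndufs7. Among the 76 genes, 43 had none of the 4 motifs in this window.

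Of the 94 members, 85 reached a mean of 10 normalized counts over the 12 Type 1 libraries and entered the tests there, and 87 did so in the 6 IL-4 libraries. The members below this level were mainly the tissue-restricted copies of complex IV subunits. Cox7b2, Cox8b and Cox8c had no read in any library, the muscle form Cox6a2 stayed at or under 18.3 normalized counts, the testis form Cox6b2 at or under 9.68 and the lung form Cox4i2 at or under 2.11. Their general counterparts were measured throughout, Cox4i1 at means between 495 and 676 in the 6 groups and Cox8a, Cox6a1 and Cox6b1 in every library.

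The 94 members together took a smaller share of the reads with IFN-γ + E. coli + ACs than in any other group. The share was 0.961%, 0.993% and 0.931% in the ACs libraries of the Type 1 experiment and 0.752%, 0.787% and 0.803% in the combined group, and these groups did not overlap. E. coli + ACs gave 0.971%, 0.952% and 1.01%, which overlapped ACs alone. IFN-γ + ACs gave 0.951%, 0.953% and 0.91%, which overlapped it too. In the IL-4 experiment it was 1.11%, 1.15% and 1.09% in the controls and 1.1001%, 1.104% and 1.14% under IL-4, again overlapping. On the deposited normalized scale the sums of the combined group (35333 to 37762) and of its ACs (35588 to 39477) did overlap. The mean sum of the combined group (36335.5) was still the lowest of the Type 1 experiment, where ACs had 37645. The share of reads thus parted that group from ACs without overlap, and the normalized sum did not. In every combined library the deposited normalized counts summed over all genes to more than in any ACs library. The 13 protein-coding transcripts of the mitochondrial genome, which encode the remaining subunits, took 4.31% to 4.9% of reads with ACs and 4.19% to 5.42% in the combined group.

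**Figure D1:**
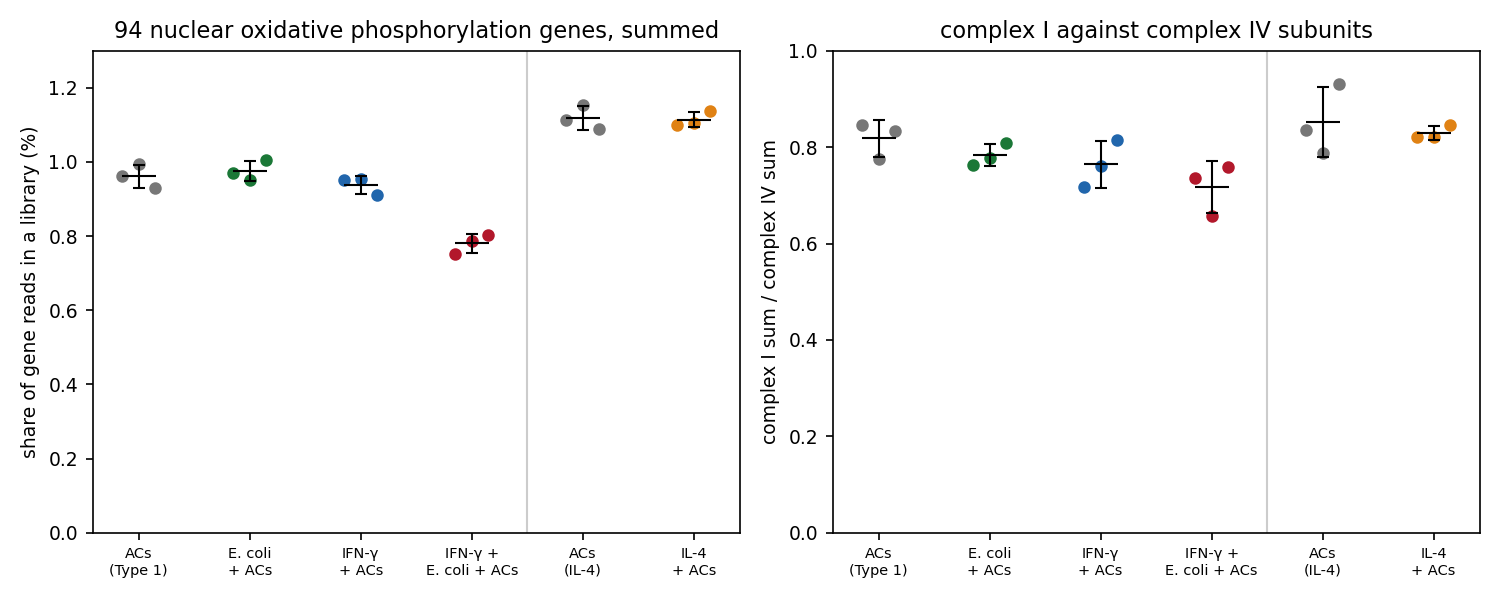
Left, the share of gene reads (percent, y axis) taken by the 94 members in each of the 18 libraries (points) by group (x axis); right, the ratio of the summed normalized counts of complex I subunits to those of complex IV subunits. Bars are the mean and SD of 3 libraries and the vertical line parts the experiments; the share is lowest in the 3 libraries of IFN-γ + E. coli + ACs, between 0.752% and 0.803%.

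The levels of other cells' markers moved between these groups too. The summed normalized counts of 10 macrophage markers, of which 9 or 10 were above 0 in each library, were 15557 to 20438 with ACs. They were 7393 to 9636 under E. coli, 25452 to 34527 under IFN-γ, 8614 to 9411 in the combined group and 19593 to 36559 in the IL-4 experiment. Cd163 was the macrophage marker nearest to 0 in the combined group, at a mean of 0.867. Of 10 macrophage markers tested, 5 were called lower under E. coli, where 5.25% of all genes were. Under IFN-γ 4 were called higher and 1 lower (11.4% and 9.96% of all genes), and with both 1 higher and 5 lower (14.7% and 17.2%). Of 3 neutrophil markers tested, 1 was called higher with each single stimulus, and 2 higher and 1 lower with both. Thymocyte markers summed to between 21.4 and 226 in all libraries, with Rag1, Rag2 and Dntt at or near 0. The summed eosinophil markers were 17299 to 18944 with ACs, 18096 to 18917 under E. coli and 16333 to 19236 in the combined group, and lower without overlap under IFN-γ, at 11649 to 12975. Under IFN-γ 3 of 7 eosinophil markers tested were called lower, where 9.96% of all genes were. With both stimuli 2 of 7 were called lower and 1 higher, where 17.2% and 14.7% of all genes were. Under E. coli 1 of 7 was called lower, where 5.25% of all genes were. Siglecf and Ccr3 were high while Epx was near 0. The part of these cells in the results below was not tested, and in such bulk libraries fewer cells of a type and less RNA per cell cannot be told apart.

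E. coli added to ACs gave no call among the members. None of 85 was past the threshold used throughout (limma, adjusted p under 0.05 over all genes tested and at least 1.5-fold), where 5.05% of all 10166 genes tested were called higher and 5.25% lower. At an unadjusted p under 0.05 (limma) there were 9 of the 85 members and 2633 of all 10166 genes. No member was called by edgeR or DESeq2. The median log2 fold change of the members, on the scale log2(normalized count + 1) used for every fold change here, was 0.09, and that of all genes was -0.004. The members' median turned to -0.0023 when libraries were scaled to a common total, where the median of all genes moved to -0.10. Members whose 3 libraries did not overlap those of ACs were 20 higher and 4 lower of 85, where 38.3% of all genes did not overlap.

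Cox7c, a small complex IV subunit, stood at 828, 812 and 796 normalized counts with ACs and at 1114, 1136 and 1102 with E. coli + ACs. All 3 stimulated libraries lay above the controls, and the log2 fold change of 0.46 ± 0.10 (SE, adjusted p = 0.0046 by limma) was under the 1.5-fold mark. Sdhb, the iron-sulfur subunit of complex II, was at 119.5, 116 and 135 with ACs and at 162, 165 and 179 under E. coli, a log2 difference of 0.44 ± 0.15 with adjusted p = 0.052. The core subunits of complex I, among them Ndufs1, which holds iron-sulfur clusters, had a median log2 difference of 0.09.

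IFN-γ added to ACs raised 4 members and lowered 1 of 85, where 11.4% of all genes were called higher and 9.96% lower. The 4 that rose belonged to 4 complexes, and the one that fell was an assembly factor. The median log2 fold change of the members was 0.15, and that of all genes was 0.00. By complex the medians were 0.35 for complex III, 0.31 for complex II, 0.30 for complex IV, 0.24 for ATP synthase, 0.10 for the accessory and -0.04 for the core subunits of complex I, and -0.35 for its assembly factors. There were 27 members higher and 4 lower without overlap, where 42.9% of all genes did not overlap.

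Cox7c was at 1243, 1261 and 1211 normalized counts with IFN-γ + ACs, above all 3 ACs libraries and above the 3 of E. coli + ACs. Its log2 fold change was 0.61 ± 0.10 (adjusted p = 0.00017, limma), and with edgeR it was not called. For Sdhb the IFN-γ + ACs libraries were at 194, 195 and 191, with a log2 fold change of 0.64 ± 0.15 (adjusted p = 0.0028, limma). Uqcr10, a small subunit of complex III, was at 155, 183 and 153 with ACs and at 233, 253 and 291 with IFN-γ + ACs, again without overlap, and rose by 0.66 ± 0.16 (adjusted p = 0.005, limma), a call lost without replicate 3 of IFN-γ + ACs. Atp5mpl, a small proteolipid found with ATP synthase, was at 225, 287 and 143 with ACs and at 311, 337 and 339 with IFN-γ + ACs. It rose by 0.65 ± 0.21 (adjusted p = 0.029, limma), but the call was lost with edgeR, DESeq2 and without replicate 3 of ACs or replicate 2 or 3 of IFN-γ + ACs.

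Ndufaf6, an assembly factor needed early in building complex I, fell. It was at 48.8, 37.5 and 40.0 normalized counts with ACs, at 20.1, 18.8 and 27.3 under E. coli, and at 18.5, 9.17 and 4.1 with IFN-γ + ACs. The IFN-γ libraries were all under the lowest ACs library, and the log2 fold change was -2.09 ± 0.47 (adjusted p = 0.0023, limma). In replicate 3 of IFN-γ + ACs 3 reads are worth 6.16 normalized counts, so the value of 4.1 was fewer than 3 reads. The Ndufaf6 call held in all 14 alternatives run, but the gene was too low to be tested at a mean of at least 50. A further member was called lower without replicate 1 of ACs. The 4 rises depended on the scaling between libraries: none of them was called when libraries were brought to a common upper quartile or a common total, and the members' median turned to -0.08 under the total, when the median of all genes moved to -0.24. Relative to all genes the members' median stayed at 0.15 under the deposited scaling, the upper quartile and the total.

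With IFN-γ and E. coli together, 3 members rose and 7 fell of 85, where 14.7% of all genes were called higher and 17.2% lower. The members that rose were Cox7a2, Cox7c and Ndufv3, and those that fell were Ndufaf3, Ndufaf5, Ndufaf8, Atp5e, Atp5s, Ndufb5 and Uqcr11. The median of the members was -0.24 and that of all genes -0.05, and 61 members lay below 0 and 24 above. Without overlap between the groups, 6 members were higher and 27 lower, where 48.8% of all genes did not overlap. The complexes differed: all 7 core and 26 of 29 accessory subunits of complex I were below 0, with medians of -0.44 and -0.28, and the assembly factors had a median of -0.69. Complex III and complex IV had medians of 0.12 and 0.08, complex II of -0.01 and ATP synthase of -0.07.

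A ratio taken inside each library is free of the scaling between libraries. Summed complex I subunits divided by summed complex IV subunits gave 0.846, 0.775 and 0.833 with ACs, and 0.735, 0.656 and 0.759 in the combined group. The highest combined library lay under the lowest ACs library. Under E. coli the ratio ran from 0.764 to 0.808, overlapping ACs. Under IFN-γ it ran from 0.717 to 0.814, overlapping both ACs and the combined group. Against ATP synthase the order was another one: the ratio of complex I subunits to ATP synthase was 0.731 to 0.777 with ACs, 0.685 to 0.772 under E. coli, 0.643 to 0.698 under IFN-γ and 0.653 to 0.692 in the combined group. Here IFN-γ alone also lay wholly below ACs, and the IL-4 libraries (0.762 to 0.803) lay just below their controls (0.804 to 0.821). Assembly factors per complex I subunit sum were below ACs (0.0446 to 0.0484) in all 3 stimulated Type 1 groups, the highest of whose libraries was at 0.0404. In the IL-4 experiment the ratio to complex IV ran from 0.788 to 0.93 with ACs and from 0.821 to 0.845 with IL-4 + ACs. How completely the 3′ end of each gene was counted is not known here, so only the order of the libraries is read from these ratios.

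**Figure D2:**
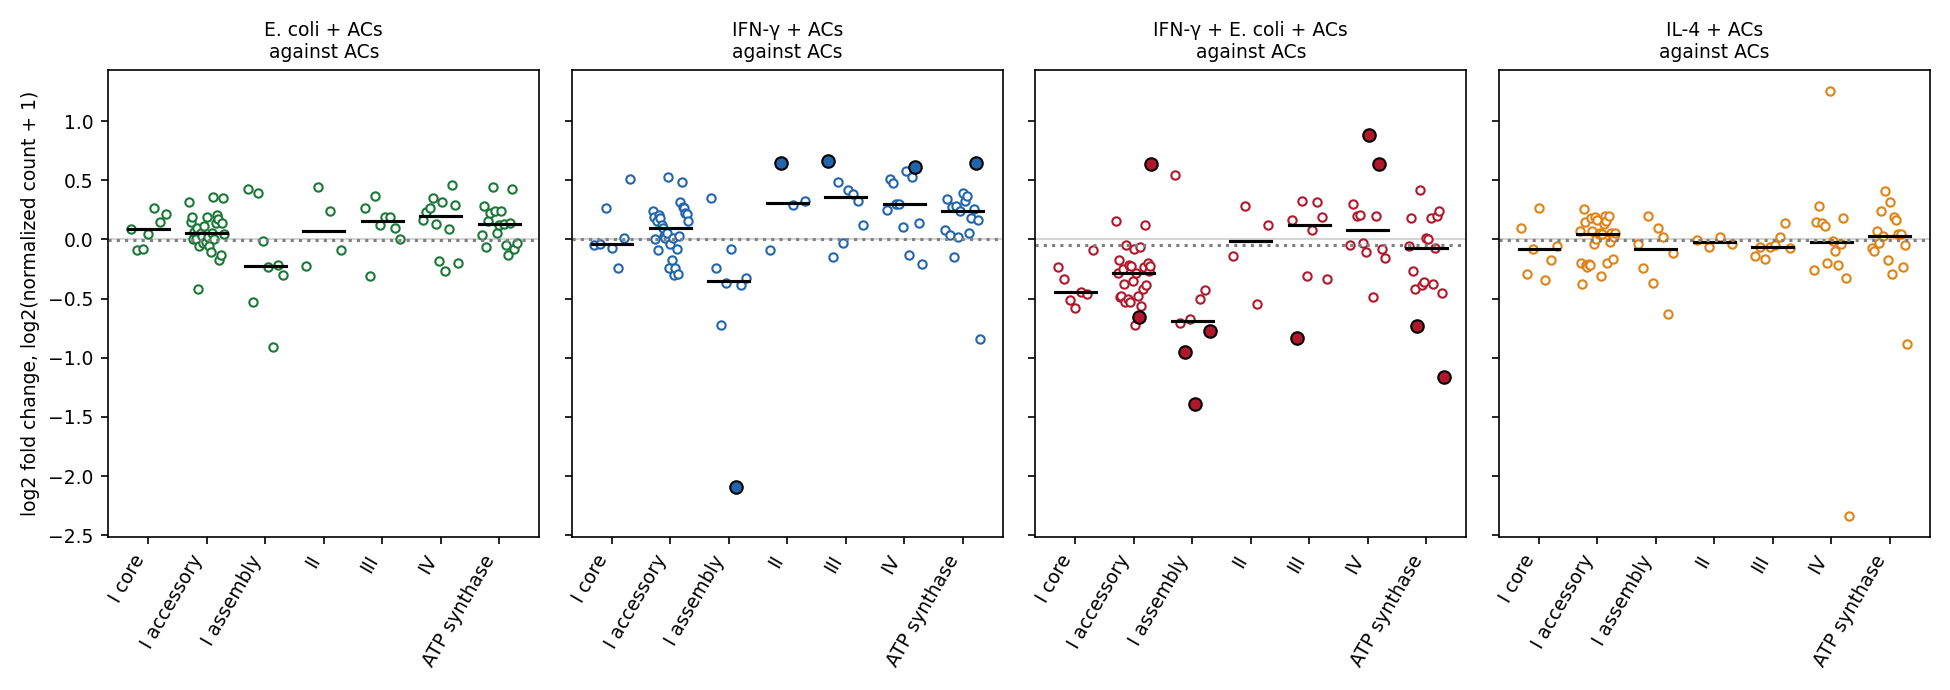
Log2 fold change of each member tested (points, y axis) by complex (x axis) in the 4 comparisons with ACs alone; filled points are past the threshold, short bars are medians and the dotted line is the median of all genes tested. With IFN-γ + E. coli + ACs all 7 core subunits of complex I lie below 0 while the medians of complexes III and IV are 0.12 and 0.08.

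Cox7a2, the general form of a small complex IV subunit, rose the most. It was at 146, 144 and 123 normalized counts with ACs, at 176, 160.2 and 176 under E. coli, at 202, 213 and 201 under IFN-γ and at 267, 214 and 287 with both. The groups followed each other without overlap, and the change with both was 0.88 ± 0.15 (adjusted p = 0.00014, limma). Its paralog Cox7a2l had a log2 difference of -0.49 ± 0.12 (adjusted p = 0.0023, limma), under the 1.5-fold mark and on the other side of 0.

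Cox7c was at 1197, 1198 and 1403 with both stimuli, a rise of 0.64 ± 0.10 (adjusted p = 6.8e-05, limma). Ndufv3, an accessory subunit beside the NADH-binding part of complex I, was at 393, 414 and 348 with ACs and at 573, 609.5 and 607 with both, with the single stimuli between 381 and 486. It rose by 0.63 ± 0.12 (adjusted p = 0.0005, limma), while 26 of the 29 accessory subunits were below 0. The calls of Cox7c and Ndufv3 were lost under upper quartile and total scaling, with log2 values still above 0, and also without replicate 3 of the combined group (Cox7c) or of ACs (Ndufv3), and that of Cox7a2 was kept in all 15 alternatives.

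The assembly factors of complex I held 3 of the 7 falls. Ndufaf5, an enzyme that hydroxylates an arginine of Ndufs7, was at 54.5, 33.8 and 29.4 normalized counts with ACs and at 8.55, 18.3 and 16.6 with both, all under the lowest control, with a log2 fold change of -1.39 ± 0.35 (adjusted p = 0.0041, limma). Ndufaf8, which is known to work with Ndufaf5, was at 134, 149 and 127 with ACs and at 74.1, 106 and 63.5 with both, a log2 fold change of -0.78 ± 0.22 (adjusted p = 0.0078, limma). Ndufs7 itself, a core subunit near the ubiquinone site whose YY1 letters are shown above, was at 199, 207 and 248.7 with ACs and 124, 194 and 127 with both. Its log2 difference of -0.58 ± 0.19 had adjusted p = 0.022 and lay just under 1.5-fold. Ndufaf3 was at 24.4, 41.3 and 52.2 with ACs and at 21.4, 13.4 and 23.4 with both (log2 fold change -0.95 ± 0.33, adjusted p = 0.03, limma), and the call was lost without replicate 2 or 3 of ACs or replicate 2 of the combined group. Its exons overlap those of Impdh2 on the other strand, and whether the counting used strand is not given in the sources used here.

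Among the subunits, Atp5e, the epsilon subunit in the central stalk of ATP synthase, was at 334, 337 and 273 with ACs and at 191, 192 and 184 with both stimuli. The single stimuli left it between 233 and 389, and the log2 fold change with both was -0.73 ± 0.15 (adjusted p = 0.00062, limma). Uqcr11, a small complex III subunit, was at 69.1, 72.3 and 59.5 with ACs and at 39.9, 34.2 and 37.2 with both (log2 fold change -0.83 ± 0.23, adjusted p = 0.0078, limma). Ndufb5, in the membrane arm of complex I, was at 139.9, 168 and 150.1 with ACs and at 94.1, 96.5 and 98.0 with both (log2 fold change -0.66 ± 0.18, adjusted p = 0.0071, limma), and its exons overlap those of Mrpl47 on the other strand. Each of these groups was free of overlap. Atp5s, a factor linked to ATP synthase, was low, at 26.0, 23.5 and 16.3 with ACs and 4.28, 11.0 and 15.2 with both, and its fall of 1.16 on the log2 scale (adjusted p = 0.045, limma) was called in 6 of 14 alternatives and was lost without any 1 of the ACs libraries or replicate 1 of the combined group.

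**Figure D3:**
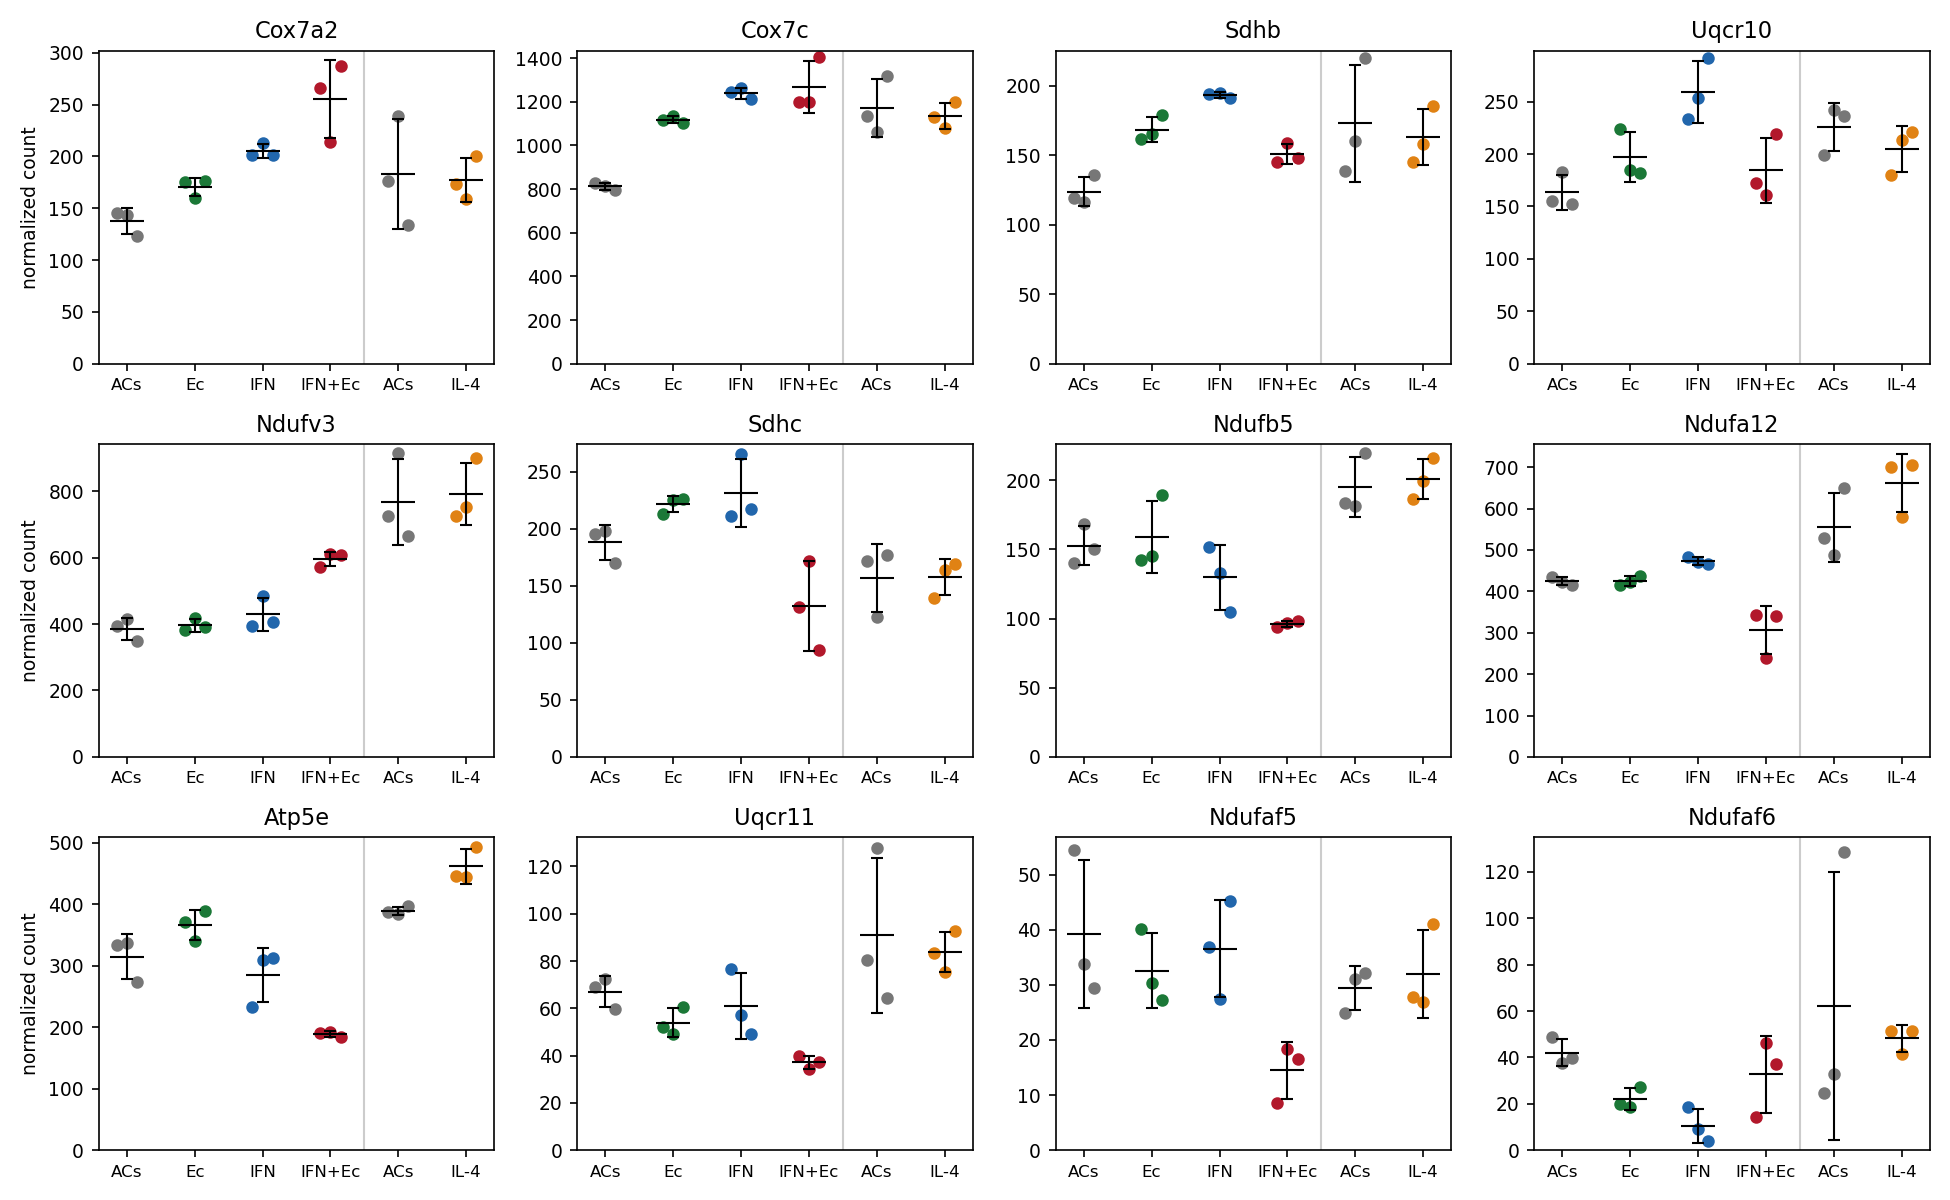
Normalized counts (y axis, from 0) of 12 members past the threshold in a comparison, in each of the 18 libraries (points) with the mean and SD of 3; Ec is E. coli, IFN is IFN-γ, and ACs were in every group. The 3 libraries with both stimuli are the lowest of the Type 1 experiment for Atp5e (184 to 192) and the highest for Ndufv3 (573 to 609.5).

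The catalytic subunits gave a mixed picture with both stimuli. Ndufv1, which binds NADH, and Ndufs8 and Ndufs1 of the core had log2 differences of -0.46, -0.44 and -0.23, none past the threshold. In complex II, Sdha, the flavoprotein, was at -0.14 and Sdhb at 0.28, and of the membrane anchors Sdhc was at -0.54 ± 0.19 (adjusted p = 0.028) and Sdhd at 0.12. Uqcrfs1, the Rieske protein of complex III, was at 0.32, and Uqcrc1, a core protein of complex III, at -0.31. Cox5a was at 0.30 and Cox4i1 at -0.05. Of the alpha and beta subunits of ATP synthase, Atp5a1 was at -0.05 and Atp5b at 0.18. The 3 genes for the same c subunit peptide, Atp5g1, Atp5g2 and Atp5g3, were at -0.38, -0.36 and 0.01. None of these was past the threshold under the deposited scaling.

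The number of members that fell with both stimuli depended on the scaling. It was 7 with the deposited size factors, 19 after scaling to a common upper quartile and 32 after scaling to a common total. The number that rose went from 3 to 1 and 1. Of all 10166 genes 1746, 2200 and 2687 were called lower in the same order, and 1494, 1155 and 935 higher. The members' median went from -0.24 to -0.38 and -0.49, and the median of all genes from -0.05 to -0.18 and -0.29, so that relative to all genes the members stayed at -0.19 under each of these scalings. That relative value was -0.32 among genes with a mean of at least 50. There the members' median was -0.22 and that of all genes 0.09, so mainly the median of all genes had moved. When single libraries were left out the relative value lay between -0.26 and -0.16. Without replicate 2 of the combined group 13 members were called lower, where 1819 of all 10164 genes were.

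The interaction term asked whether both stimuli together differed from the sum of the single changes. Of 85 members 8 were called lower than the sum and 1 higher, where 4.28% of all genes were called lower and 3.16% higher. The members' median was -0.45 and that of all genes -0.03, and 79 of 85 members were below 0, compared with 5294 of 10166 genes. By complex the medians lay between -0.19 for the assembly factors and -0.55 for the core subunits of complex I, with -0.43 for complex III and -0.44 for complex IV.

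Sdhc, a membrane anchor of complex II, had the largest negative term among the members called. It was at 196, 198 and 170.4 normalized counts with ACs, 213, 226 and 226 under E. coli, 211, 266 and 218 under IFN-γ and 131, 172 and 93.8 with both, and the term was -1.08 ± 0.26 (adjusted p = 0.017, limma). Sdhb, above ACs with each single stimulus, was at 145, 159 and 148 with both (-0.80 ± 0.21, adjusted p = 0.022, limma). Sdhb and Sdhc were thus below the IFN-γ + ACs libraries when E. coli was added. The other members of complex II were not called. Sdha was at -0.14 with both where the single changes summed to -0.31, and Sdhd at 0.12 where they summed to 0.24. Atp5e had a term of -0.80 ± 0.21 and Uqcr10 of -0.76 ± 0.23, with adjusted p = 0.022 and 0.0498 (limma). The Uqcr10 call was kept in 7 of 21 alternatives and lost, among others, with edgeR, without a filter and under total scaling.

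In complex I the members called lower than the sum were Ndufv2, Ndufab1, Ndufb9 and Ndufa12. Ndufv2, an iron-sulfur subunit of the NADH-binding part, was at 236, 289 and 242 under IFN-γ and at 178, 178 and 148 with both, where ACs alone gave 182, 189 and 166 (-0.81 ± 0.21, adjusted p = 0.024, limma). Ndufab1, the mitochondrial acyl carrier protein, was at 216, 191 and 203 under IFN-γ and at 148, 97.7 and 120.0 with both (-0.86 ± 0.26, adjusted p = 0.045, limma). Ndufb9 and Ndufa12, accessory subunits, had terms of -0.76 and -0.64 (adjusted p = 0.042 and 0.049, limma), and a same-strand gene model, Gm49356, overlaps the exons of Ndufb9. The call of Ndufa12 was kept in 7 of 21 alternatives, being lost with edgeR as well, and those of Ndufb9 and Ndufab1 in 10 of 21. Ndufaf6 had the only positive term called, 2.50 ± 0.66 (adjusted p = 0.025, limma): its libraries lay below all ACs libraries under each stimulus alone, and it was at 14.2, 46.4 and 37.2 with both. Its value in replicate 3 of IFN-γ + ACs was worth fewer than 3 reads.

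These calls rested on few libraries. The number of members called lower ran from 0 to 11 when single libraries were left out, and it was 0 without replicate 2 of IFN-γ + ACs, 1 without replicate 3 of ACs or of E. coli + ACs, 2 without replicate 1 of E. coli + ACs, and 4 without replicate 1 of ACs or replicate 2 of E. coli + ACs. The single call above the sum, Ndufaf6, was absent without any 1 of the ACs libraries, replicate 1 or 2 of E. coli + ACs, or replicate 2 of IFN-γ + ACs. The members' median stayed between -0.47 and -0.35 in all of these.

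**Figure D4:**
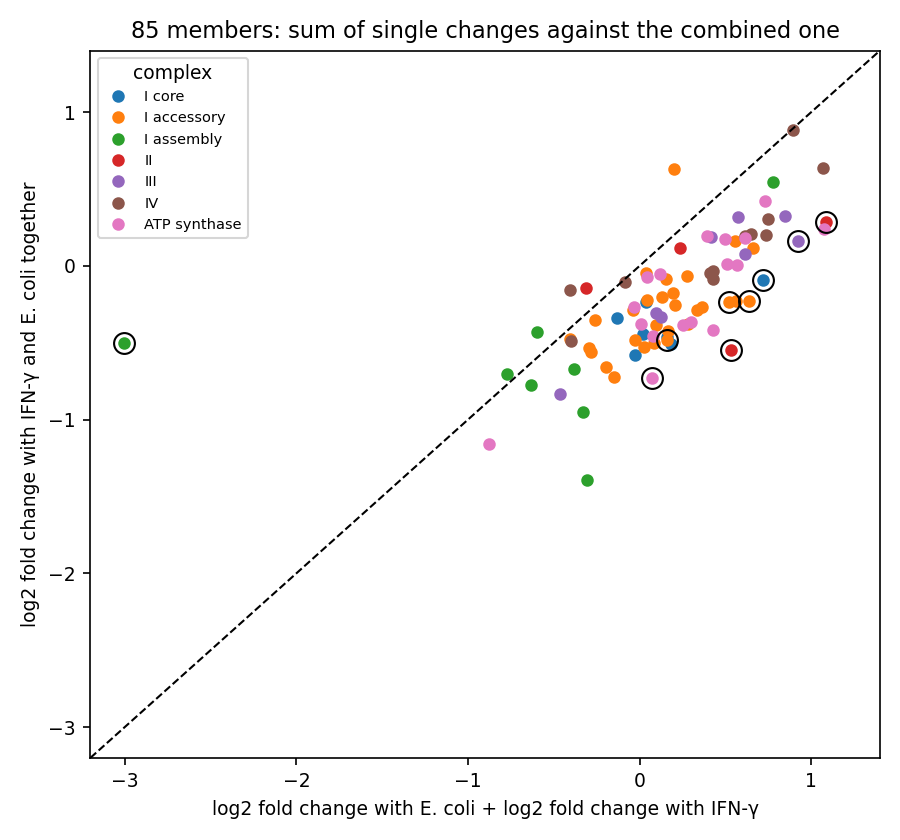
Each point is 1 of 85 members, with the sum of its log2 fold changes with E. coli and with IFN-γ on the x axis and its log2 fold change with both together on the y axis; colours give the complex, rings mark the 9 members past the threshold and the dashed line is equality. Below the line lie 79 members; the ringed point far to the left is Ndufaf6.

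IL-4 added to ACs gave no call among the members. None of 87 was past the threshold, where 0.74% of all 10669 genes were called higher and 0.347% lower. An unadjusted p under 0.05 (limma) was found for 2 members and for 1030 of all genes, and edgeR and DESeq2 called no member. The median of the members was -0.02 and that of all genes -0.01. Without both shallow libraries 345 genes were called higher and 311 lower of 10629, in place of 79 and 37, and 1 member, Ndufa4l2, was called lower. Without overlap 6 were higher and 5 lower, where 17.3% of all genes did not overlap. The medians of the complexes lay between -0.08 and 0.05.

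The log2 differences of single members ran from -2.34 to 1.25. Ndufs1 was at 414, 476 and 445 with ACs and at 464, 526 and 442 with IL-4 + ACs (0.10 ± 0.14), Atp5a1 at 772, 954 and 724 and at 752, 722 and 838 (-0.08 ± 0.15), and Cox7c at 1135, 1060.3 and 1319 and at 1131, 1078 and 1198 (-0.04 ± 0.13). Atp5g1 was at 396, 398 and 542 with ACs and at 520.3, 526 and 735 with IL-4 + ACs, a difference of 0.41 ± 0.19 (adjusted p = 0.53) whose groups overlapped. Ndufa4l2, a paralog of Ndufa4 known from hypoxia, was at 18.8, 31.9 and 16.1 with ACs and at 8.69, 7.9 and 0 with IL-4 + ACs. Its groups did not overlap, and its adjusted p was 0.48 (limma) in the fit of all 6 libraries. The lowest ACs value, 16.1, is worth 3 reads of a shallow library, and the 0 came from the other shallow library. Ndufa4l2 had no read in the ACs and E. coli + ACs libraries of the Type 1 experiment. Cox7a1, the muscle form of Cox7a2, was at 22.6, 35.8 and 5.36 with ACs and at 42.9, 34.8 and 46.3 with IL-4 + ACs (adjusted p = 0.54).

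The IL-4 change and the change with IFN-γ + E. coli, each against its own ACs, were compared in a fit of all 18 libraries. Of 86 members 8 had a higher and 2 a lower value with IL-4, where 9.67% of all genes were higher and 10.8% lower. The 8 were Atp5e (0.97 ± 0.19, adjusted p = 0.00085, limma), Ndufaf5 (1.49), Ndufs7 (0.85), Atp5g1 (0.79), Ndufa12 (0.74), Ndufb5 (0.70), Ndufa7 (0.68) and Ndufa13 (0.63), and the 2 were Cox7a2 (-0.90) and Cox7c (-0.68). Of the higher ones, 1 was among the 7 core and 4 were among the 29 accessory subunits of complex I tested. Ndufa7, an accessory subunit, was at 321, 343 and 319.7 with ACs and 217, 261 and 218 in the combined group, and in the IL-4 experiment at 469, 434 and 466 with ACs and 486, 488 and 581 with IL-4 + ACs. The calls of Atp5e and Ndufa7 held in all 22 alternatives, while those of Ndufs7 and Ndufaf5 were among the calls lost without both shallow libraries. That of Ndufb5 was kept in 10 of 22. The number of higher members fell to 4 without replicate 1 or replicate 3 of IFN-γ + E. coli + ACs and to 5 without replicate 2 of the Type 1 ACs or replicate 1 of the IL-4 experiment's ACs, and the lower ones to 1 without replicate 2 of the latter. The experiments had separate ACs libraries, and the experiment and the stimulus cannot be told apart in levels set side by side.

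A paralog of Ndufa4 outside the rule had a larger log2 fold change than any member in each of the 4 comparisons with ACs. AA467197, also called Nmes1, encodes a small mitochondrial protein that is known to take the place of Ndufa4 in complex IV during inflammation. It was at 198, 234 and 165 normalized counts with ACs, at 572, 432 and 567 under E. coli, at 2069.6, 2632 and 2079 under IFN-γ and at 1294, 1266 and 2032 with both. The IL-4 experiment had 106, 93.4 and 236 in its controls and 588, 593 and 997 under IL-4. Every stimulated library lay above all ACs libraries of its experiment. The log2 fold changes were 1.397, 3.51 and 2.92 in the Type 1 experiment and 2.40 ± 0.34 with IL-4 (adjusted p = 0.0086, limma), and the call held in every alternative of each comparison. The interaction term was -1.99 ± 0.25, so both stimuli together gave less than the sum. Ndufa4 itself was at 367, 404 and 382 with ACs, at 402, 272 and 339 with IFN-γ + ACs, at 411, 257 and 386 with both, at 279, 353 and 268 with the ACs of the IL-4 experiment and at 246, 263 and 206 with IL-4 + ACs. It was past the threshold in no comparison, with log2 differences between -0.33 and -0.16 for the 4 stimuli, though its IL-4 + ACs libraries all lay below the controls.

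**Figure D5:**
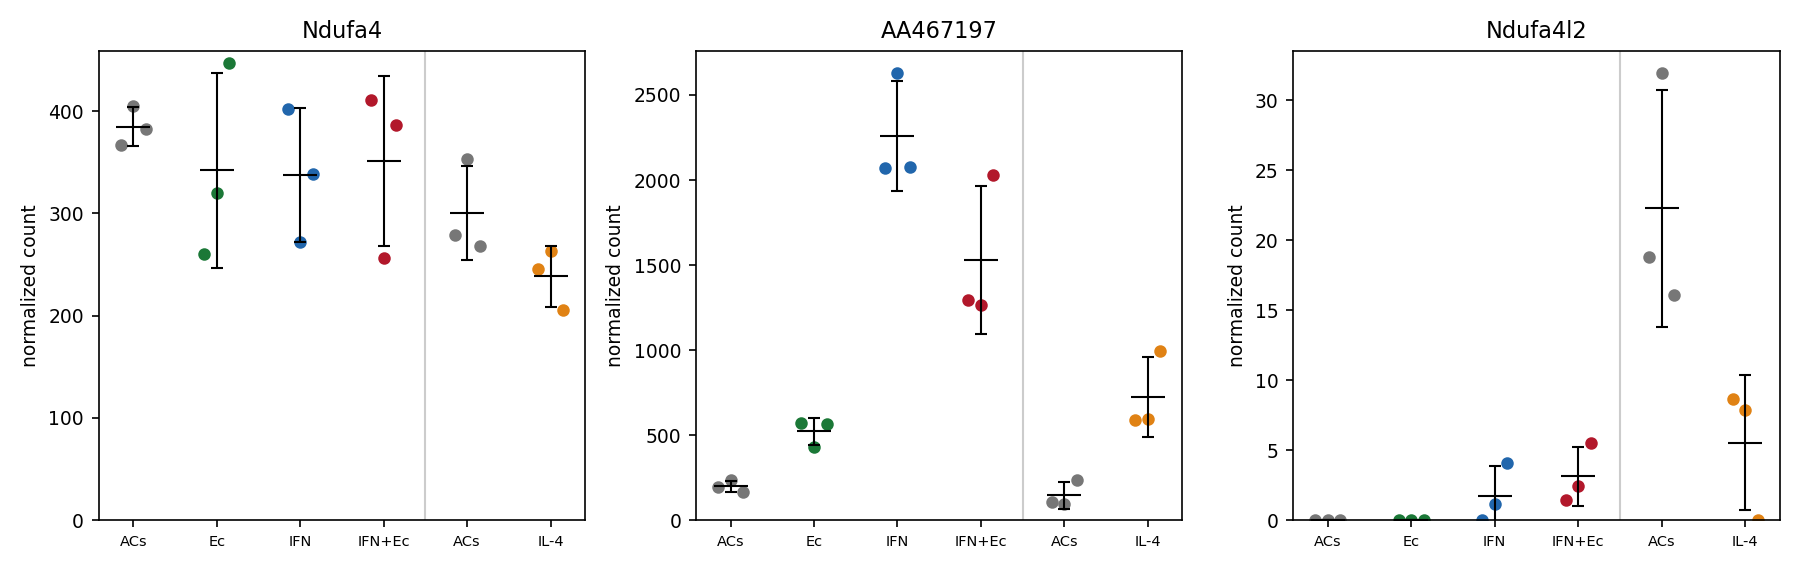
Normalized counts (y axis, from 0, scaled per panel) of Ndufa4, AA467197 and Ndufa4l2 in the 18 libraries (points) with the mean and SD of 3; Ec is E. coli and IFN is IFN-γ. AA467197 lies above its ACs libraries with every stimulus, up to 2632 with IFN-γ + ACs, while Ndufa4 stays between 206 and 447 throughout.

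Other genes of the pathway, from a list of carriers and assembly factors of the complexes that are not members, were counted in the same fits. With E. coli + ACs 1 rose and 1 fell of 42 tested, where 5.05% and 5.25% of all genes did. Under IFN-γ 4 rose and 3 fell, where 11.4% and 9.96% of all genes did. With both 3 rose and 13 fell, where 14.7% and 17.2% of all genes did. With IL-4 + ACs none of 45 was called, where 0.74% and 0.347% of all genes were. Cycs, cytochrome c, was at 1238, 1408 and 1184 normalized counts with ACs, 2436, 2957 and 2854 under IFN-γ and 2552, 2195 and 2986 with both, log2 fold changes of 1.105 ± 0.12 and 1.01 ± 0.12. Higd1a, a hypoxia-induced partner of the respiratory complexes, was at 131, 147 and 129 with ACs and 496, 480.1 and 483 with both (1.84 ± 0.14, adjusted p = 6.7e-09, limma). Cox17, a copper chaperone for complex IV, rose with each of the 3 Type 1 stimuli, by 0.68, 0.86 and 0.92, and its call under E. coli was lost without replicate 3 of ACs or replicate 1 or 3 of E. coli + ACs.

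Those that fell with both stimuli included assembly factors and carriers. Sdhaf4, which helps mature Sdha, was at 106, 106 and 97.9 with ACs and 24.2, 31.8 and 46.9 with both (-1.61 ± 0.26, adjusted p = 7.7e-05, limma). Coa6, an assembly factor for complex IV, was at 70.8, 94.8 and 67.7 with ACs and 22.8, 37.9 and 27.6 with both (-1.39 ± 0.26). The ADP/ATP carrier Slc25a5 was at 1025, 974 and 997 with ACs and 676, 656 and 654 with both (-0.59 ± 0.10), a call lost without replicate 1 of ACs or replicate 3 of the combined group, and the uncoupling protein Ucp2 and the electron transfer flavoprotein subunit Etfb fell by 0.80 and 0.98. None of the groups of these genes overlapped, and the calls of Higd1a, Sdhaf4, Coa6 and Ucp2 held in every alternative with both stimuli.

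Of the regulators, 10 were tested in the Type 1 experiment and 1 was called, with both stimuli, a share no larger than the 14.7% of all genes called higher there. Gabpb1, a subunit of GABP, was at 44.7, 46.9 and 55.5 with ACs and 82.7, 97.7 and 129.7 in the combined group (1.04 ± 0.22, adjusted p = 0.00082, limma). Nrf1 was at 117, 151 and 149 with ACs and 214, 227 and 178 with both, a difference of 0.57 ± 0.17 (adjusted p = 0.012) that stayed under 1.5-fold. Yy1 and Gabpa had log2 differences of 0.34 and 0.45. Ppargc1a, a coactivator of this gene programme, was at or under 5.14 normalized counts in every library.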

How the data were processed

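Values deposited by the authors are a normalized signal, counts of 3′-end reads per gene divided by size factors (DESeq2), in 18 libraries. The submitters' processing notes name cutadapt 1.10, TopHat2 2.1.0, Bowtie2 2.2.6, HTSeq 0.6.1, DESeq2 1.26.0 and GRCm38. Whether molecular identifiers were collapsed is not given in the sources used here. Dividing by the value of 1 read gave whole numbers for 100% of values (tolerance 0.1), so depth and count tests could be had. Symbols came from GENCODE vM21 for 54409 of 54446 identifiers. Another 13 symbols match the naming rule without being protein coding; of these only Ndufb1-ps (mean 844) was above 1 normalized count. A second Atp5o row held 1 read.

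The members and gene lists were chosen with earlier results of these data known. Genes with a mean of at least 10 over the libraries fitted were tested with limma (version 3.58.1, R 4.3.3, trend) on log2(normalized count + 1), with Benjamini-Hochberg adjustment over all genes and a threshold of adjusted p under 0.05 and 1.5-fold. The 12 Type 1 libraries shared 1 fit and the 6 IL-4 libraries another. Named genes were all members past the threshold in a comparison (there were 10 or fewer in each), a fixed set of catalytic subunits and paralogs, and genes from a fixed list of other pathway genes and regulators. edgeR (4.0.16) and DESeq2 (1.42.0) ran on the recovered reads as alternatives. The scripts were tested on simulated data. With 3 libraries a group, p-values measure the spread between those libraries. Intervals of counting error were not computed. One member is not reported here by name.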

Additional observations from a re-analysis of the deposited data

Results flagged for a closer look

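By the interaction term of IFN-γ and E. coli, the change with both stimuli differed from the sum of the single changes for 9 members. They were Atp5e (-0.80), Ndufa12 (-0.64), Ndufv2 (-0.81), Ndufb9 (-0.76), Uqcr10 (-0.76), Sdhc (-1.08), Sdhb (-0.80), Ndufab1 (-0.86) and Ndufaf6 (2.50). These are log2 values of the change with both stimuli minus the sum of the single changes. Among the 85 members 8 were called lower than the sum and 1 higher, where 4.28% and 3.16% of all genes were. The calls of Ndufa12 and Uqcr10 were each kept in 7 of 21 alternatives, and those of Ndufb9 and Ndufab1 in 10. The same term passed the threshold for 4 genes outside the rule, Cycs (-0.63), AA467197 (-1.99), Etfa (-0.93) and Slc25a5 (-0.59). AA467197 and Etfa kept the call in all 21 alternatives.

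Between the IL-4 change and the change with IFN-γ + E. coli, each against its own ACs, the difference passed the threshold for 10 members: Ndufa13 (0.63), Ndufb5 (0.70), Atp5e (0.97), Atp5g1 (0.79), Ndufa12 (0.74), Ndufs7 (0.85), Ndufa7 (0.68), Ndufaf5 (1.49), Cox7a2 (-0.90) and Cox7c (-0.68), as log2 values of IL-4 minus IFN-γ + E. coli. These were 8 higher and 2 lower of 86 members, where 9.67% of all 10414 genes were called higher and 10.8% lower. The calls of Atp5e and Ndufa7 were kept in all 22 alternatives, and that of Ndufb5 in 10. Groups of 3 libraries were not searched for single outlying libraries.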

How the results depend on the processing

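Replicate numbers did not pair the libraries: deviations of same-numbered libraries correlated between -0.089 and 0.085 in the Type 1 experiment, and a replicate block left the called members at 0 and 0 (higher and lower) with E. coli, 4 and 1 with IFN-γ, 3 and 6 with both, 1 and 7 for the interaction, 0 and 0 with IL-4, and 7 and 2 for the difference. The block ended the calls of Atp5s with both stimuli, of Ndufa12, Ndufb9 and Uqcr10 for the interaction, where 2 other members were gained, and of Ndufb5 for the difference. With E. coli, 2 members were called higher without a fold threshold and the median was reversed to 0.00 (-0.0023) under total scaling. With IFN-γ, members called higher were 0 under upper quartile and under total scaling, 2 with edgeR and 16 without a fold threshold; members called lower were 2 without a filter, 0 at a mean of at least 50 and 3 under total scaling; the median was 0.066 under the upper quartile and reversed to -0.085 under the total. With both, 1 member was higher under upper quartile and under total scaling, and the members lower were 4 at a mean of at least 50, 19 under the upper quartile, 32 under the total and 21 without a fold threshold; the median was -0.38 and -0.49 under these scalings. For the interaction no member was higher without a filter or at a mean of at least 50, and 4 were lower without a filter or under total scaling, where the median was -0.36. With IL-4, 1 member was lower without both shallow libraries, an alternative chosen after seeing the data. For the difference, 4 were higher without a filter and 17 under total scaling, 1 and 0 were lower under upper quartile and total scaling, and the median was 0.32 and 0.41 under these. The cause of these shifts was not tested, beyond the scaling itself moving all genes. Calls over all genes shifted as well. Without a fold threshold 738 of 10166 genes were called higher with E. coli, 1553 higher with IFN-γ and 1966 lower with both. Under total scaling 1867 were called lower with IFN-γ and 2687 lower with both, and 1528 of 10414 higher for the difference.

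Leaving out single libraries gave 0 higher and 0 lower with E. coli (median 0.06 to 0.11), 3 to 6 and 1 to 2 with IFN-γ (0.12 to 0.19), 2 to 4 and 6 to 13 with both (-0.30 to -0.20), 0 to 1 and 0 to 11 for the interaction (-0.47 to -0.35), 0 and 0 with IL-4 (-0.07 to 0.03) and 4 to 8 and 1 to 3 for the difference (0.12 to 0.23). In the shallow libraries of the IL-4 experiment 3 reads are worth 16.1 and 15.4 normalized counts, so differences of low members under that level were not detectable there.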
